A study of Drosophila melanogaster with 2 samples.

Results

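The GAGA factor is the product of Trl, and its binding sites were mapped by chromatin immunoprecipitation followed by sequencing (ChIP-seq) in Kc cells, an established Drosophila melanogaster cell line. The regions described here are the stretches of the genome in which at least 4 of its peaks lay in close succession. They were chosen by peak position alone, that is, by the start and end that the peak caller gave. Peaks of the single list were sorted along each chromosome, and neighbours with fewer than 2000 bp between them were joined into a run. Of all 3842 peaks, 513 (13.4%) fell into 108 runs of 4 or more, and these peaks and runs are the subject. A further 1588 peaks lay in 705 runs of 2 or 3, and 1741 were single. The study comprised 1 ChIP sample, with an antibody named KW3-Trl-D2, and 1 sample of input chromatin, both from Kc cells without treatment. The protocols speak of fly material, and how the cells were grown is not stated. Both chromatins were crosslinked in 1.8% formaldehyde for 15 minutes and sonicated for 15 minutes. The peak list belongs to the ChIP sample, and the series design names input chromatin as its control.

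The GAGA factor binds GA-rich elements through a zinc finger and joins into larger complexes through its BTB/POZ domain, so that several molecules can hold neighbouring elements together. It is known for keeping promoters free of nucleosomes, for its presence at heat-shock genes with paused RNA polymerase, and for binding in Polycomb response elements of homeotic genes. Arrays of closely spaced GAGA elements are a known feature of such regulatory regions. Which genes lie at the runs was not analysed here, and neither was the sequence beneath the peaks. Positions are 1-based coordinates of the BDGP5 assembly.

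All values come from 1 list without a replicate, so none carries an error between cultures or libraries, and none was tested. Intervals are exact 95% binomial intervals for shares, or the matching order-statistic intervals for medians. They cover counting over peaks or runs only, and treat peaks of 1 run as independent, although these share their surroundings. The list gives no read counts, so the depth behind each peak is unknown. The score of a peak is the authors' own from the peak caller, on a scale that the list does not name. Width and score come from the same calls.

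Together the 108 runs spanned 586 kb, of which peaks covered 357 kb, or 15.2% of all the length covered by peaks in the list. Most runs were small. There were 67 runs of 4 peaks, 24 of 5, 10 of 6 and 4 of 8, and single runs of 10, 11 and 12. The median span from the first to the last base was 4.96 kb (interval 4.47 to 5.52), with quartiles at 4.01 and 6.59 kb. The extremes were 2.20 and 15.7 kb, and 4 runs spanned 10 kb or more. Span rose with the number of peaks, with medians of 4372 bp for runs of 4, 6250 bp for runs of 5 and 8325 bp for runs of 6 or more, which the joining rule itself favours. The median run was covered by peaks over 62.2% of its length (interval 57.7 to 65.4), with quartiles at 50.9% and 71.1% and extremes of 28.0% and 94.2%. Peaks covered at least 50% of the span in 86 runs and at least 80% in 14, and under 40% in 4. Covered share did not follow the number of peaks in one direction, with medians of 62.5%, 57.2% and 62.1% for runs of 4, of 5 and of 6 or more. A run lay at a median of 7.57 kb from the nearest peak outside it.

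These numbers depend on how peaks are delimited. Among peaks with a score of 100 or more, 303 lay in 66 runs of 4 or more. When peaks less than 500 bp apart were first merged into 1 peak, 88 peaks in 20 runs were left.

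**Figure D1:**
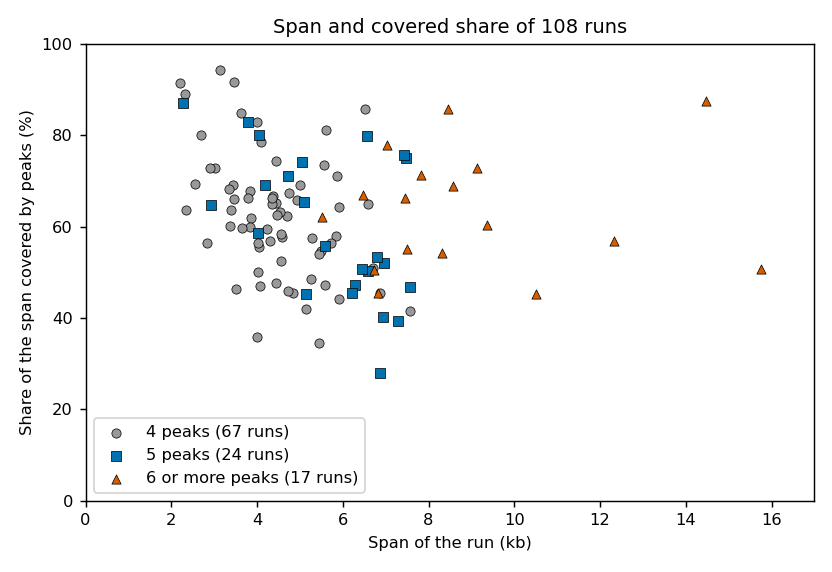
Span of each of the 108 runs in kb (horizontal axis) against the share of the span covered by peaks in percent (vertical axis), 1 point a run, with symbols for runs of 4, of 5 and of 6 or more peaks. Spans run from 2.20 to 15.7 kb and covered shares from 28.0% to 94.2%, and 17 runs hold 6 or more peaks.

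The 17 runs of 6 or more peaks hold 125 of the 513 peaks and show how the peaks of a run are laid out. The fullest run extended over 12.3 kb of X, from 3578930 to 3591253, and its 12 peaks filled 56.8% of that length. In order of position its peaks were 378, 681, 855, 996, 710, 391, 276, 481, 465, 520, 949 and 296 bp wide. Their scores in the same order were 475, 740, 1059, 2829, 3100, 471, 208, 156, 1081, 1521, 3100 and 1076. The run thus held a pair of strong centres, peaks 4 and 5 and peak 11, with weaker and mostly narrower peaks between and around them. No gap but 1 exceeded 960 bp. The exception, of 1893 bp, lay between peaks 9 and 10.

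The run with the longest span lay on 2R from 6417881 to 6433629, where 11 peaks made up 50.6% of 15.7 kb. Its widest was peak 3, at 1709 bp with a score of 3100, and stood apart from its neighbours by gaps of 1876 and 484 bp. A tighter block followed, made of peaks 6, 7 and 8 at 1142, 667 and 678 bp wide, with scores of 2957, 2957 and 1769. The gaps within that block were 41 and 9 bp. The other peaks of the run were weaker, with scores from 63.6 to 711.

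On X, 10 peaks between 7595312 and 7604445 filled 72.9% of 9.13 kb. Here 5 consecutive peaks, from peak 4 to peak 8, were parted by gaps of only 43, 6, 4 and 27 bp. Their widths were 485, 796, 1006, 1046 and 592 bp. Their scores, at 105, 2419, 1499, 3100 and 59.5, nevertheless differed widely between immediate neighbours. Whether peaks a few bases apart are 1 enriched region divided by the caller was not tested.

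Of the 4 runs of 8 peaks, all on X, the run from 2186477 to 2200950 was unlike the rest in that each of its peaks was over 1000 bp wide. The widths were 1651, 1001, 1647, 1096, 1401, 2873, 1113 and 1889 bp, so that peaks covered 87.5% of 14.5 kb. Scores were between 1005 and 3100, except for peak 5, which had a width of 1401 bp and a score of 95.3. The run from 3565733 to 3575102 was uneven, with a peak of 2302 bp and a score of 3100 among 7 peaks of 299 to 715 bp. The run from 3666764 to 3675329 held 2 peaks with a score of 3100, and its first 2 peaks were set off from the rest by a gap of 1887 bp. The run from 12553973 to 12562297 was the weakest of these 4, with a median score of 252 and a highest score of 1568.

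Among the 10 runs of 6 peaks, the best covered lay on X from 7584698 to 7593146, at 85.8% of 8.45 kb. It contained the widest of the 513 peaks, at 2983 bp, between neighbours of 664 and 1042 bp. On 3L from 17562676 to 17573183, higher and lower scores took turns. The scores there were 3233, 130, 1358, 110, 3100 and 216, and the widths were 1164, 543, 746, 323, 1265 and 727 bp. No gap in this run was under 856 bp, and its covered share was 45.4%. On 3L from 9682912 to 9690373 the first 2 peaks, of 247 and 211 bp with scores of 59.0 and 74.6, preceded a block of 3 peaks with gaps of 3 and 11 bp. That block opened with a peak of 2035 bp and was followed by 1 more peak of 887 bp. On 3L from 21000318 to 21008130, 5 of 6 peaks scored 1721 or more, and the remaining peak scored 62.5.

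On 2R there were 3 runs of 6. Each held at least 1 peak at the score of 3100 and at least 2 peaks with a score under 100. From 4534247 to 4540712, peaks of 1068 and 1281 bp, both with that score, flanked a peak of 576 bp with a score of 203. From 6304478 to 6311975, peak 3 was 1532 bp wide, and the run ended in peaks of 275 and 172 bp with scores of 60.6 and 64.6. From 12466753 to 12473489, 3 peaks of 293 to 404 bp and scores under 100 lay side by side before a peak of 1062 bp. The remaining 3 lay on X from 1510737 to 1517759, on 2L from 5145067 to 5151877 and on 3R from 14563897 to 14569417. Their widest peaks, of 1637, 862 and 837 bp, were peak 3 of each run.

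**Figure D2:**
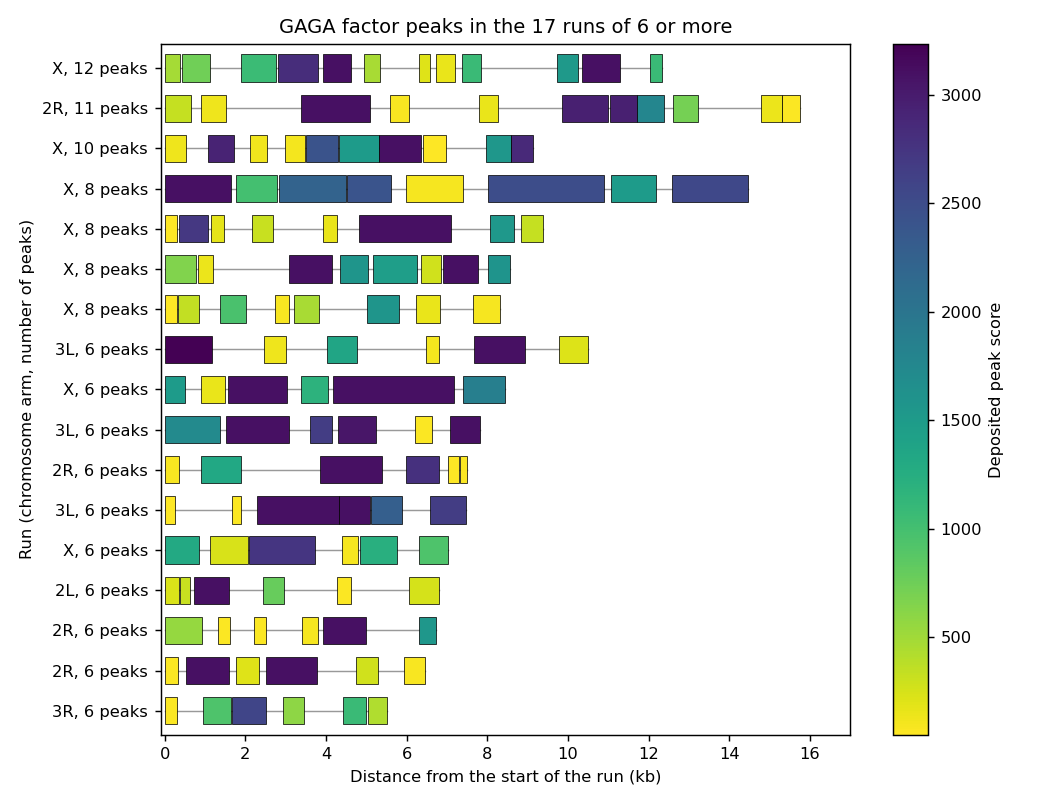
The 17 runs of 6 or more peaks, 1 a line, with each peak drawn to scale as a box at its distance in kb from the start of its run (horizontal axis) and coloured by its deposited score. Lines are ordered by the number of peaks, from 12 to 6, and then by span, and the widest box lies inside the run, neither first nor last, in all 17.

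Within runs of 4 or more, 405 gaps separated neighbouring peaks. Their median was 396 bp (interval 310 to 458). The quartiles lay at 116 and 895 bp, and the gaps ran from 3 to 1971 bp. Gaps under 250 bp made up 41.2%, and 52 gaps (12.8%) were under 50 bp. At the other end, 88 gaps (21.7%) were of 1000 bp or more. From centre to centre, neighbouring peaks lay 1124 bp apart at the median, with quartiles at 793 and 1654 bp. Spacing was uneven within a run. In 49 runs (45.4%) a gap under 250 bp and a gap of 1000 bp or more occurred together, while every gap was under 500 bp in 15 runs and none was in 9. The first and last gaps of a run had a median of 399.5 bp (interval 280 to 479), and the gaps between inside peaks had one of 391 bp (247 to 502).

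Spacing inside these runs was close to that inside shorter runs. In runs of 2 or 3, the 883 gaps had a median of 373 bp (interval 324 to 430), and 39.0% were under 250 bp. Gaps under 50 bp made up 9.40% there (interval 7.56 to 11.5), against 12.8% (9.74 to 16.5) in runs of 4 or more. Both sets were cut at the same 2000 bp, so neither could hold a longer gap. The widest joined gaps in runs of 4 or more were 1971, 1968, 1968, 1966 and 1956 bp. Just outside, gaps of 2011, 2015, 2017, 2035 and 2066 bp ended a run that would otherwise have been a run of 4 or more, or a longer one. The gap of 2066 bp parted a pair of runs of 4 on 2R. The 178 runs of 3, just below the required number, had a median span of 2946.5 bp, a median covered share of 64.6% and a median score of 497. The 67 runs of 4, just above it, had medians of 4372 bp, 62.5% and 787.

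**Figure D3:**
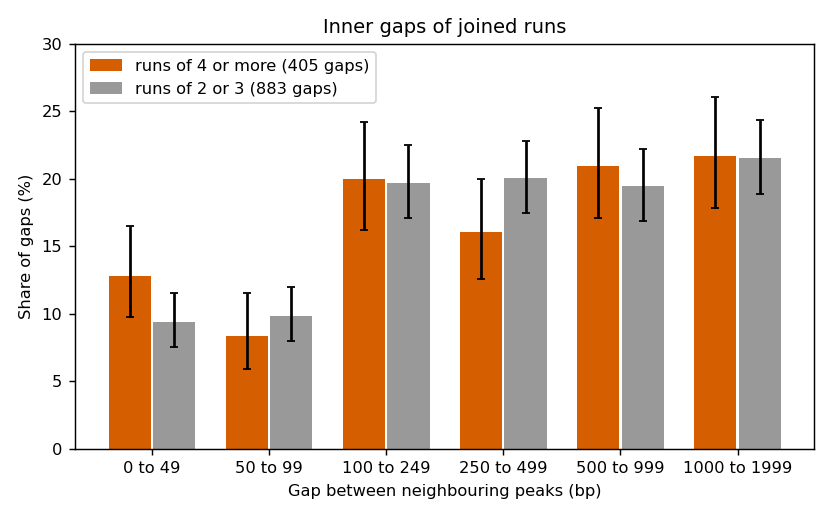
Share of inner gaps in percent (vertical axis) by length of the gap in bp (horizontal axis), for the 405 gaps in runs of 4 or more and the 883 in runs of 2 or 3, with exact 95% binomial intervals as error bars that cover counting only. The 2 sets have medians of 396 and 373 bp and their intervals overlap in every class.

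Gaps in these runs differed with the class of the peaks beside them. A peak was called strong at a score of 1000 or more and weak at a score under 100. It was called wide at 1000 bp or more, narrow under 300 bp and middle otherwise. The 87 pairs of strong neighbours had a median gap of 192 bp, the 136 pairs of a strong and a medium peak had 432.5 bp, and the 47 pairs of a strong and a weak peak had 458 bp. The 15 pairs of weak neighbours had a median gap of 890 bp, on few pairs. By width, the 20 pairs of wide neighbours had a median gap of 166 bp, against 411 bp for the 246 pairs of middle peaks and 72.5 bp for the 4 pairs of narrow peaks. In runs of 2 or 3, the 20 pairs of wide neighbours also had a short median gap, of 147 bp. By score, the 114 strong pairs there had a median of 328.5 bp and the 234 pairs of a strong and a medium peak 366.5 bp. The 104 pairs of a strong and a weak peak had 427.5 bp. The 35 weak pairs differed in place, with the shortest median there, 279 bp, and the longest in runs of 4 or more. Gaps are counted from edge to edge, so width enters them directly, and its part in these differences was not tested.

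By width class, most neighbours were both middle peaks, as were most peaks. Of the 405 neighbouring pairs in runs of 4 or more, 2 joined a wide with a narrow peak, 20 joined wide peaks, 4 joined narrow peaks and 94 joined a wide with a middle peak. In runs of 2 or 3, 7 of 883 pairs joined a wide with a narrow peak. Both a wide and a narrow peak occurred in 7 runs. A wide peak was present in 56 runs (51.9%), more than 1 in 18 runs, a narrow peak in 24, and neither in 35. The widest peak of a run was 2.48 times as wide as the narrowest at the median (quartiles 1.84 and 3.38), and held 32.9% of the covered length.

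High and low scores were mixed within a run. The highest score of a run exceeded its lowest by 2331 at the median, with quartiles at 1534 and 2977. Many peaks were tied at a score of 3100, and the highest score in these runs was 3233. Of all 3842 peaks, 295 scored 3100 or more. Tied peaks cannot be ranked by score, which limits score differences and the place of the highest score. More than 1 peak shared the highest score in 10 of the 108 runs. A score under 100 occurred in 57 runs and a score of 3100 or more in 50, and both occurred together in 22 runs. Only 5 runs had every score at 1000 or more, and 9 had every score under 1000. Neighbours differed in score by a median of 913, with quartiles at 265 and 1839, and the wider of a pair was 1.58 times as wide as the other at the median. Across these pairs the Spearman rho between neighbours was 0.05 for score and 0.10 for width, and the corresponding Pearson r was 0.05 and 0.15. The pairs come from 1 list, and most peaks enter 2 of them. Neighbours were thus nearly unrelated in rank. In runs of 2 or 3, rho was 0.10 for score and 0.16 for width over 883 pairs.

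The order of wide and narrow peaks along a run showed no common pattern in runs of 4 or 5. Over all 108 runs, the widest peak lay inside the run in 64 (59.3%, interval 49.4 to 68.6), and 57.9% of the 513 peaks were inside peaks, that is, neither first nor last. Here and below, the share of inside peaks is taken over peaks, so longer runs weigh more in it than in counts of runs. In runs of 4, the widest was peak 1 in 21 runs, peak 2 in 18, peak 3 in 14 and peak 4 in 14. In runs of 5, it was peak 1 in 6 runs, peak 2 in 5, peak 3 in 4, peak 4 in 6 and peak 5 in 3. The 216 peaks at the ends had a median width of 599 bp (interval 549 to 642) and a median score of 724 (475 to 1040). The 297 inside peaks had 606 bp (551 to 642) and 732 (540 to 980). Wide peaks made up 14.8% of end peaks and 17.5% of inside peaks, and narrow peaks 6.94% and 5.72%. Of the inside peaks, 108 were wider than both neighbours, 95 were narrower than both and 94 lay between them. Widths changed direction at least 2 times in 67 runs, rose and then fell in 21, fell and then rose in 12, and only rose or only fell in 8.

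Longer runs differed in this respect. In the 17 runs of 6 or more, the widest peak lay inside in each, and 72.8% of their peaks were inside peaks. The exact interval for the share inside was 80.5% to 100%. This division by length was made after the values were seen. The highest score lay inside in 14 of these 17 runs, in 26 of 67 runs of 4 (38.8%) and in 12 of 24 runs of 5. A score shared with an end peak was counted as not inside, which lowers these counts. Inside peaks made up 50% of peaks in runs of 4 and 60% in runs of 5. Peaks at place 3 or deeper from the nearer end had a median width of 636 bp (interval 525 to 726) and a median score of 960 (342 to 1568), and 22.2% of these 81 peaks were wide. For peaks at place 2 these values were 594 bp (547 to 633), 695 (515 to 903) and 15.7%. The intervals overlap. The widest peak was also the strongest, alone or tied, in 62 runs (57.4%).

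**Figure D4:**
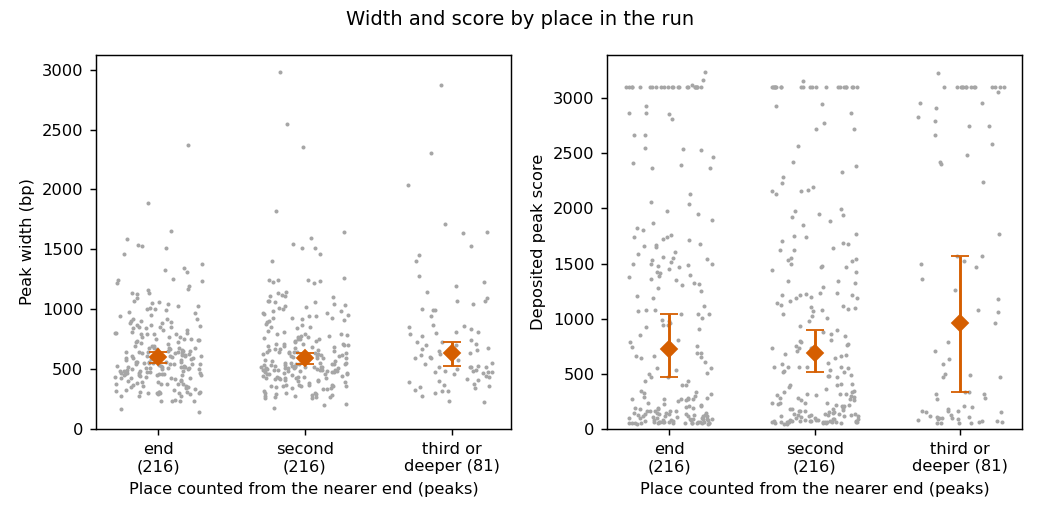
Width in bp (left) and deposited score (right) of the 513 peaks by place counted from the nearer end of the run, with 216 end peaks, 216 peaks at place 2 and 81 at place 3 or deeper. Grey points are peaks, spread sideways for sight only, and diamonds are medians with 95% order-statistic intervals, which overlap between all places.

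Peaks in runs of 4 or more were wider and scored higher than the other peaks of the list. The rule used positions, so width entered it through the start and end of each peak. The score did not enter it directly, but it went with width, at a Spearman rho of 0.73 over the 513 peaks. The median width was 603 bp (interval 562 to 632), against 529 bp (514 to 546) in runs of 2 or 3 and 492 bp (476 to 506) for single peaks. The median score was 732 (560 to 935), against 443 (392 to 500) and 280.5 (257 to 328) in the same order. Wide peaks numbered 84 of 513 (16.4%), where the whole list had 10.9%, and narrow ones 32 (6.24%), where the whole list had 9.92%. A score of 1000 or more was held by 226 peaks (44.1%), against 30.1% of all peaks. A score of 3100 or more was held by 63 (12.3%), against 7.68% of all peaks, and a score under 100 by 83 (16.2%), against 21.1% of all peaks. Weak peaks thus remained a substantial part of these runs. Of the 83 weak members, 41 (49.4%) lay next to a strong peak, against 57.5% of all members, and 39 (47.0%) lay at an end of the run, against 42.1% of all members.

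At like width, scores in runs of 4 or more were not above those elsewhere in every class. For widths of 148 to 391 bp, the median score was 90.0 (interval 71.5 to 140) in these runs, 95.1 (87.9 to 115) in runs of 2 or 3 and 91.3 (83.0 to 98.7) in single peaks. For widths of 392 to 521 bp it was lowest in runs of 4 or more, at 194 (156 to 281), against 245 (204 to 303) and 210 (181 to 233). For widths of 522 to 737 bp it was 756 (633 to 1040), against 717 (617 to 803) and 651 (574 to 746). For widths of 738 bp or more it was 2159 (1721 to 2578), against 1930 (1760 to 2112) in runs of 2 or 3 and 1600 (1409 to 1837) in single peaks. The intervals overlap between the sets in every class. The upper group was not fully matched, with median widths of 996, 924 and 957 bp in the same order.

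The extremes of cover and score show how unlike the runs were. The most covered lay on X from 9578159 to 9581306, where 4 peaks of 593, 658, 648 and 1067 bp left gaps of 4, 39 and 139 bp and covered 94.2%. Its scores ran from 1187 to 1401. It was followed by runs of 4 on 3R from 22359597 to 22363059, with 91.7% covered, on 3L from 20501027 to 20503225, with 91.5%, and on 3L from 16798863 to 16801173, with 89.1%. The run from 20501027 was also the shortest, at 2199 bp. Next in cover was the run of 8 wide peaks on X described above.

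The least covered run lay on X from 4578300 to 4585165, at 28.0% of 6.87 kb. Its 5 peaks, of 595, 428, 365, 300 and 234 bp, narrowed along the run, with scores of 213, 183, 63.6, 86.2 and 70.1. No gap in it was under 1006 bp. Next came runs on 3R from 21561137 to 21566587 (34.5%), on X from 13213632 to 13217621 (35.9%) and from 11573467 to 11580753 (39.4%), and on 2L from 7418482 to 7425423 (40.2%).

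By median score, the highest run lay on 3R from 4878091 to 4883964, with 4 scores of 3100, 1471, 3152 and 3100. It was followed by a run on X from 3633631 to 3639242, with a median of 2982 and a peak of 2543 bp. The run of 6 on 3L that ended at 21008130 came next, with a median of 2862. Runs of 5 followed on 2L from 2750877 to 2755925, with a median of 2807, and on X from 7950287 to 7957753, with 2716. The lowest median, 83.8, belonged to a run of 5 on 2L from 2362579 to 2364848. There a first peak of 830 bp with a score of 1006 preceded peaks of 178, 235 and 206 bp with scores from 54.4 to 83.8. Low medians could go with a strong peak, as on 3R from 5753908 to 5758460, where a score of 3100 stood before scores of 51.3, 62.2 and 135. The other low runs were the least covered one on X, 1 on 3R from 17441863 to 17445263 with a median of 130, and 1 on 2L from 220442 to 224787 with a median of 141.

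Runs of 4 or more were found on X and on each autosomal arm, and once on chromosome 4. X held 26 runs with 145 peaks, or 17.1% of its peaks (interval 14.7 to 19.9). The shares were 15.5% on 2L (12.8 to 18.6, 22 runs), 12.2% on 2R (9.89 to 14.9, 18 runs), 12.8% on 3R (10.6 to 15.2, 26 runs) and 9.26% on 3L (7.28 to 11.6, 15 runs). X and 3L were thus the extremes among the 5 major arms. The interval of X overlapped those of 2L, 2R and 3R but not that of 3L. Up to the last peak of each arm, X carried 1.16 runs per Mb, against 0.65 for 3L. The rates were 0.96 on 2L, 0.93 on 3R and 0.85 on 2R. Over these lengths X held 846 peaks in 22.4 Mb, 3L 745 in 23.2 Mb and 2L 631 in 22.9 Mb. The part of peak density in these rates was not tested. The heterochromatin and unplaced scaffolds held none among 29 peaks, which allows a share of up to 10.3%, taken as 3 counts of the total rather than from an exact interval.

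X held a larger share of the long runs than of all peaks. X held 22.0% of all peaks in the list, 26 of 108 runs of 4 or more (24.1%), 15 of 41 runs of 5 or more (36.6%) and 8 of 17 runs of 6 or more (47.1%). Some of these long runs on X lay near each other, namely those of 8, 12 and 8 peaks between 3565733 and 3675329. Those of 6 and 10 peaks between 7584698 and 7604445 did as well. Runs of 4 on X were not longer than elsewhere, with a median span of 3990 bp over 11 runs, against 4442 bp over 56 runs on the 4 autosomal arms. The widest peak lay inside in 21 of 26 runs on X (80.8%), where 64.1% of peaks were inside peaks. It lay inside in 42 of 81 runs on the autosomal arms (51.9%), where 55.4% of peaks were. Runs were also longer on X, and the part of length in this difference was not tested.

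The single run on chromosome 4 lay from 521964 to 529526 and held 5 of the 26 peaks there. Its widths were 773, 491, 591, 1045 and 637 bp and its scores 3100, 234, 502, 1237 and 807, so that the strongest peak was peak 1 and the widest was peak 4. Gaps of 485, 1822, 1657 and 62 bp left 46.8% of 7.56 kb covered. The runs with the highest-scoring member of their arm lay on 3L from 17562676 (3233) and on 3R from 12879187 to 12886044 (3166). That of 2L lay from 16715902 to 16721475 (3120). Whether scores above the tied 3100 mark stronger peaks than those at 3100 was not tested. On X and 2R the highest score was 3100, and among the runs that share it the fullest are those of 12 and 11 peaks.

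**Figure D5:**
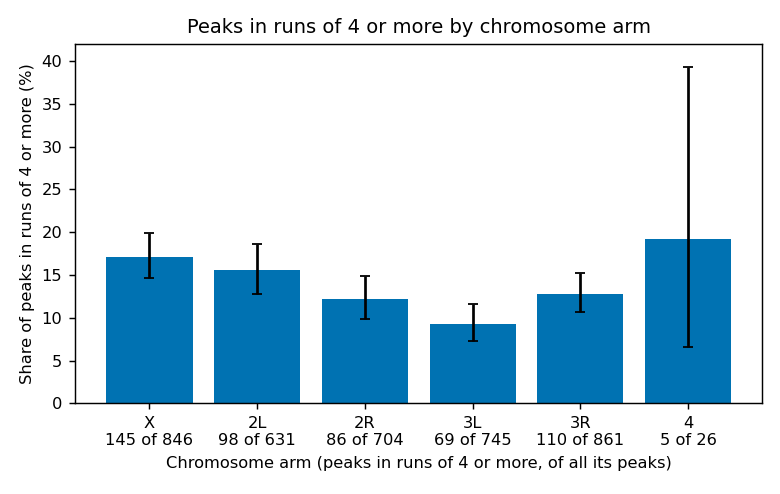
Share of the peaks of each chromosome arm that lie in runs of 4 or more, in percent (vertical axis), with exact 95% binomial intervals as error bars that cover counting only and the numbers of peaks under each bar. X stands at 17.1% and 3L at 9.26%, and the interval of chromosome 4 is wide on 26 peaks.

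Some runs themselves lay near each other. Neighbouring runs on an arm were a median of 611 kb apart, but 19 of the 108 runs lay within 50 kb of another and formed 8 groups. The largest group lay on X from 3565733 to 3675329, where 4 runs of 8, 12, 4 and 8 peaks, set 3.83, 42.4 and 27.5 kb apart, placed 32 peaks within 110 kb. Of those 32 peaks, 7 scored 3100 or more. On X from 7584698 to 7604445, runs of 6 and 10 peaks were parted by 2165 bp, just over the joining limit, so that 16 peaks lay within 19.7 kb. On 2R from 14285665 to 14295867, the pair of runs of 4 that were parted by 2066 bp placed 8 peaks within 10.2 kb. A group of 3 runs of 4 lay on 2R from 7488744 to 7554575, with 8 further peaks between them.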

How the data were processed

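ChIP-seq of the GAGA factor was done in Kc cells, with 1 ChIP sample and 1 input sample, and the series design text speaks of 2 replicates. Reads were aligned with Bowtie to BDGP5, per the submitters' processing notes, and MACS called the peaks, per the file headers. For versions, settings, duplicate reads and pooling, nothing is given in the sources used here. Scores are as deposited by the authors. Read depth is unknown.

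Peaks were sorted by start and joined at gaps (next start minus previous end) under 2000 bp with Python 3.11.15, NumPy 2.4.6, pandas 2.3.3 and SciPy 1.17.1, and plotted with Matplotlib 3.10.9. Joining was tested on simulated lists. Regions and classes were chosen with earlier results of these data known. Named are runs of 6 or more peaks, the 5 widest in span, the 5 highest and 5 lowest in covered share and in median score, and the run with the strongest peak of each chromosome, with ties broken by number of peaks and then position. The shortest run, the groups of runs, the pairs by class and the comparison at like width were chosen after values were seen. Alternatives changed the joining gap, the number of peaks required, the score and the merging of close peaks. Genes and GA elements were not analysed here.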

Additional observations from a re-analysis of the deposited data

How the results depend on the processing

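Of 72 values recomputed over 8 alternatives, 28 stayed within the interval of the reported value, or within 1.5 times of it for counts, and 44 did not. Each alternative changes which peaks are members, and beyond that construction the cause was not tested. The values below are those that moved. Joining at gaps under 1000 bp gave 55 runs and 258 peaks, a median span of 4052 bp, 71.4% covered, a median gap of 216 bp and 33.7% of members on X. Gaps under 3000 bp gave a span of 6452 bp, 51.5% covered and a gap of 526 bp. Gaps under 5000 bp gave 190 runs, 988 peaks, 7464.5 bp, 40.6%, 699.5 bp and 23.8% on X. Runs of 3 or more numbered 286 with 1047 peaks and a span of 3590 bp, and the widest peak lay inside in 46.9%, where 45.4% of peaks were inside peaks. Runs of 5 or more numbered 41 with 245 peaks and a span of 6811 bp, with the widest inside in 78.0%, where 66.5% of peaks were inside peaks, and 41.2% of members on X. Scores of 100 or more gave 66 runs, 303 peaks, 34.7% on X, a member width of 642 bp and a member score of 1089. Keeping the 50% of peaks scored highest left 24 runs, 106 peaks, 5529.5 bp, 69.8% covered, a gap of 251 bp, 44.3% on X, a width of 794 bp and a score of 1605. Merging peaks less than 500 bp apart gave 20 runs, 88 peaks, 6838.5 bp, 51.4% covered, a gap of 983 bp, 37.5% on X and a width of 650.5 bp. The share of runs with the widest peak inside was otherwise between 53.0% and 65.3%. The share of inside peaks, taken over peaks and so weighted toward longer runs, was between 54.5% and 61.5%. No paired analysis was possible because the comparison rests on a single ChIP list, and no sample could be left out. Unknown depth limits what weak peaks show.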

Other observations

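The ends of a run toward lower and higher coordinates, which carry no strand information, differed in these values. The 108 peaks at the lower-coordinate end included 21 wide peaks and 26 with a score under 100. The 108 at the higher-coordinate end included 11 and 13. Median widths were 555 bp (interval 501 to 654) and 625.5 bp (562 to 661), and median scores 582 (230 to 1006) and 832 (437 to 1321). The intervals overlap, the comparison was chosen after seeing the data, and it was not tested.

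Neighbouring peaks with an identical score were rare in runs of 4 or more. They made up 3 of 405 pairs, all at 3100, and 9 of 883 pairs in runs of 2 or 3, also all at 3100. No neighbouring pair in a run shared any other score.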
